A study of Mus musculus with 7 samples.

Results

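Herpud1 and 9 further genes of endoplasmic reticulum (ER) protein folding, ER stress sensing and ER-associated degradation were compared between oocytes lacking Mfn1 and WT oocytes. The 10 genes are the sensors and the transcription factor Ern1, Atf6 and Xbp1, the chaperones Hspa5, Hsp90b1, Dnajb9 and Sdf2l1, and the degradation genes Herpud1, Sel1l and Syvn1. They were found by symbol, and all 10 have 1 row each among the 22877 genes of the table. Herpud1 was chosen by its Mfn1-/- and WT means in these same data, as a gene with a very high ratio. Its values below are therefore a description. The other 9 were named for their function, but with earlier results of these data known.

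Herpud1 averaged 3.97 normalized counts in Mfn1-/- oocytes against 0.0683 in WT, a ratio of 58.1. Xbp1 (ratio 4.61) and Dnajb9 (ratio 2.77) were also past a 2-fold higher mean. The other chaperone genes of the set, Hspa5 (ratio 1.26), Hsp90b1 (0.859) and Sdf2l1 (1.15), stayed within 2-fold. So did the degradation genes Syvn1 (1.35) and Sel1l (0.669) and the sensors Ern1 (0.647) and Atf6 (0.776).

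The ER folds secreted and membrane proteins. When unfolded proteins accumulate there, the sensors IRE1 (Ern1), ATF6 and PERK (Eif2ak3) set off the unfolded protein response: IRE1 splices the mRNA of Xbp1 into the form that encodes an active transcription factor, ATF6 is cleaved to release another, and PERK lowers translation while favouring that of Atf4. These factors act on genes of chaperones and of ER-associated degradation, which moves misfolded proteins back to the cytosol for the proteasome. A growing oocyte secretes its zona pellucida proteins and growth factors through this same compartment.

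The oocytes came from secondary follicles of 8-week-old C57BL/6J mice. In the Mfn1-/- mice a floxed Mfn1 gene was deleted by Cre recombinase driven by the Zp3 promoter, which acts in growing oocytes and not in the surrounding granulosa cells, and the controls were WT mice, of which the sources used here do not say whether they carried the floxed alleles or Cre. Follicles were isolated from collagenase-digested ovaries and the granulosa cells removed with Accutase, and 5 oocytes were pooled for each library, amplified as cDNA by Smart-Seq2 and sequenced. There were 3 Mfn1-/- and 4 WT libraries, all of which enter the means, whereas the design text gives 3 mice per genotype and the methods count fewer samples than the labels list, and nothing says which oocytes shared an animal.

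Each gene has 1 mean of normalized counts per genotype, as the authors made it. Without a value for each library there is no replicate error, depth, test or p-value to give, and whether a difference exceeds the spread between libraries cannot be said. The log2 ratios below are those of the genotype means after 0.1 was added to each, which understates the ratio of genes with low means. Pairs of values are the Mfn1-/- mean first and the WT mean second, in normalized counts, with the log2 ratio after them. Levels are compared within a gene only, since the scale of the normalized counts, including any division by gene length, is not given in the sources used here. In pooled oocytes, fewer cells that contain an mRNA and less of it per cell cannot be told apart.

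Mfn1, the deleted gene, averaged 0.0577 in Mfn1-/- oocytes and 0.616 in WT (log2 ratio -2.18). Each of 10 oocyte markers averaged above 1 over the 7 libraries, and together they summed to 3960 in Mfn1-/- oocytes and 3860 in WT. Of 10 granulosa cell markers 9 had a row. Their summed means were 2.26 and 1.61, or 0.385 and 0.653 without Inha, the gene of an inhibin subunit (1.87 and 0.954). The lowest mean in the table is 0.01. Near it lay the defining markers Amh (0.0349 and 0.02), Foxl2 (0.0525 and 0.0183) and Fshr (0.016 and 0.0171), while Cyp19a1 (0.0846 and 0.193), Hsd17b1 (0.0412 and 0.152) and Nr5a2 (0.0974 and 0.171) were further above it and lower in Mfn1-/- oocytes. Of the 9 markers 3 were higher and 6 lower. Of 10 theca, stromal, endothelial and blood cell markers 4 had a row, with summed means of 0.306 and 0.338. The part of these cells in the results was not tested.

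Genes that averaged 1 or more over the 7 libraries, 6226 in all, are called expressed here. Their median log2 ratio was 0.16, so a gene at that value stands at the centre of the expressed genes. Relative to this centre, 6 of the 10 genes lay above and 4 below, the same split as around 0. Past 2-fold higher were 3 of the 10, Herpud1, Xbp1 and Dnajb9, and past 2-fold lower 0. Of all 22877 genes, 4.87% were past 2-fold higher and 2.75% past 2-fold lower, and of the 6226 expressed genes the shares were 5.44% and 3.24%. Higher genes made up 63.9% of all genes past 2-fold, and 47.2% once the median of 0.16 was subtracted, which left the same 3 of the 10 past 2-fold. The gene set was put together with earlier results of these data known, the ratio of Herpud1 among them. The share of the set is therefore not read against these backgrounds. The median log2 ratio of the 10 genes was 0.27, that of the 9 genes without Herpud1 0.20, and that of all genes 0.04. Expressed by this measure were 7 of the 10, of which Xbp1, Dnajb9 and Herpud1 averaged under 1 in WT oocytes and so passed through their Mfn1-/- mean. Ern1, Atf6 and Sel1l did not pass.

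**Figure D1:**
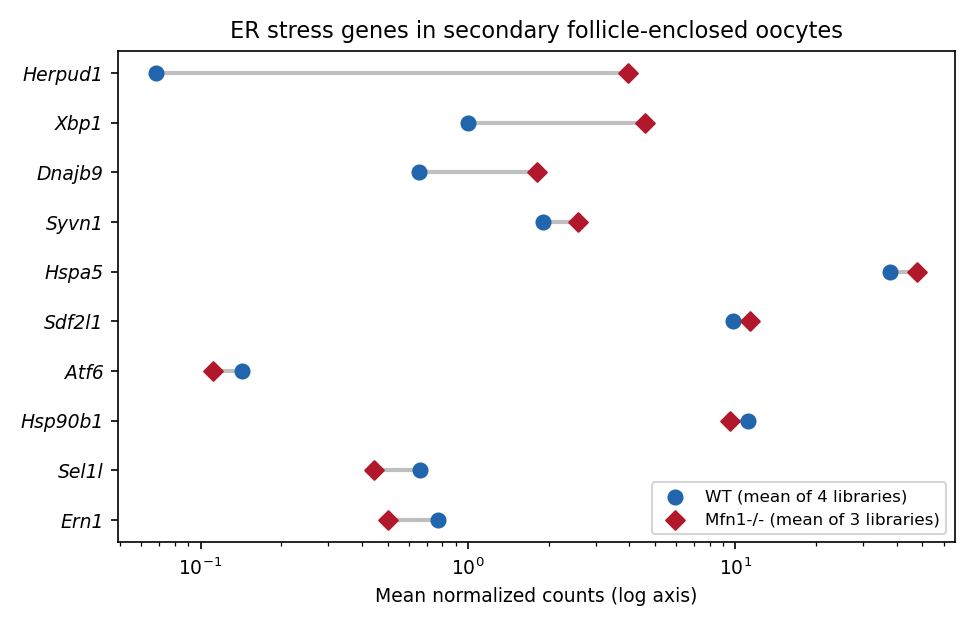
Mean normalized counts of the 10 ER stress genes on a log axis, with a blue circle for the mean of 4 WT libraries and a red diamond for the mean of 3 Mfn1-/- libraries; the table gives no error. Herpud1 spans from 0.0683 to 3.97, Xbp1 and Dnajb9 are shifted to the right in Mfn1-/- oocytes, and the other 7 pairs lie close together.

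Because the factors of the unfolded protein response bind defined sequences close to the start sites of their target genes, the 250 bases before the RefSeq start site were searched on both strands. The ER stress response element (ERSE) was searched as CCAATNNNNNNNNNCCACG, where N is any base, and is bound by ATF6 together with NF-Y. ERSE-II was searched as ATTGGNCCACG. The core of the unfolded protein response element (UPRE), bound by XBP1 and ATF6, was searched as TGACGTG, the cAMP response element (CRE) as TGACGTCA, the composite element bound by ATF4 with C/EBP proteins as TGATGNAA, and the CCAAT box by those letters. That box is by construction part of each ERSE and, on the other strand, of each ERSE-II. Windows were found for 9 of the 10 genes, and Atf6 has none in this table. The 4 windows that hold an ERSE or ERSE-II are shown, whole or in part, because they set Herpud1 beside the genes with which it shares this kind of element. Capitals mark ERSE, ERSE-II, UPRE and composite matches. All are from GRCm38.p6 and read 5′ to 3′ toward the start site: Herpud1 from chr8:94386179-94386428 (plus strand), Hspa5 from chr2:34771840-34771969 and, for the ERSE with 5 bases on each side, chr2:34772020-34772048 (plus strand), Syvn1 from chr19:6046326-6046575 (plus strand) and Hsp90b1 from chr10:86705510-86705694 (minus strand). For Hspa5 and Hsp90b1, GENCODE M21 places exons of the same gene in the rest of the window, which is not shown.
Herpud1: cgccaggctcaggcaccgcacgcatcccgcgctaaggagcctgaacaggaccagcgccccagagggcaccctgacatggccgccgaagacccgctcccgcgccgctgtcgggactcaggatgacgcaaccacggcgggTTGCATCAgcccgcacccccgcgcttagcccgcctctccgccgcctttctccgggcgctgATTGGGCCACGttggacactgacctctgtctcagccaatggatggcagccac
Hspa5: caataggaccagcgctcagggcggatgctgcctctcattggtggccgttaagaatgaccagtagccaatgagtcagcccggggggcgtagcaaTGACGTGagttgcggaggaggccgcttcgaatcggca
Hspa5 ERSE: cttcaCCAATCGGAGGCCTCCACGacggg
Syvn1: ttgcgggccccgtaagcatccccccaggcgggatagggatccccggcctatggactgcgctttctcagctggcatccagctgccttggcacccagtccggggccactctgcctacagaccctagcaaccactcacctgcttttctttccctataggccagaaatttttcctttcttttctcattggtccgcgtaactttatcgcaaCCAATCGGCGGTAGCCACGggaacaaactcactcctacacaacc
Hsp90b1: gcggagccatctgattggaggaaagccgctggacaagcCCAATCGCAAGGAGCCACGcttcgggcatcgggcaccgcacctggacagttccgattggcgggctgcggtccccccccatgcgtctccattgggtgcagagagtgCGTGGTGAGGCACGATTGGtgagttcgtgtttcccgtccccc

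The Herpud1 window holds an ERSE-II from -52 to -42 and, on the other strand, a composite element from -112 to -105. It is the sole window among the 9 with either. The Herpud1 window also ends in all ERSE letters but the last, with CCAAT from -18 to -14, 9 bases and then CCAC. The base that could complete this ERSE lies past the 250 bases searched. The Hspa5 window holds an ERSE from -65 to -47 and a UPRE core from -157 to -151. Syvn1 has an ERSE from -44 to -26, and Hsp90b1 has 2, from -212 to -194 and, on the other strand, from -107 to -89. No ERSE, ERSE-II, UPRE, CRE or composite letters were found in the windows of Xbp1, Dnajb9, Sdf2l1, Sel1l and Ern1. At least 1 CCAAT box lies in 7 of the 9 windows, against 33.8% of the 32851 windows of all genes. ERSE letters occur in 0.113% of all windows, ERSE-II in 0.0304%, the UPRE core in 1.65%, the CRE in 1.55% and the composite element in 3.45%. A match is only a match of letters, and binding was not measured.

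**Figure D2:**
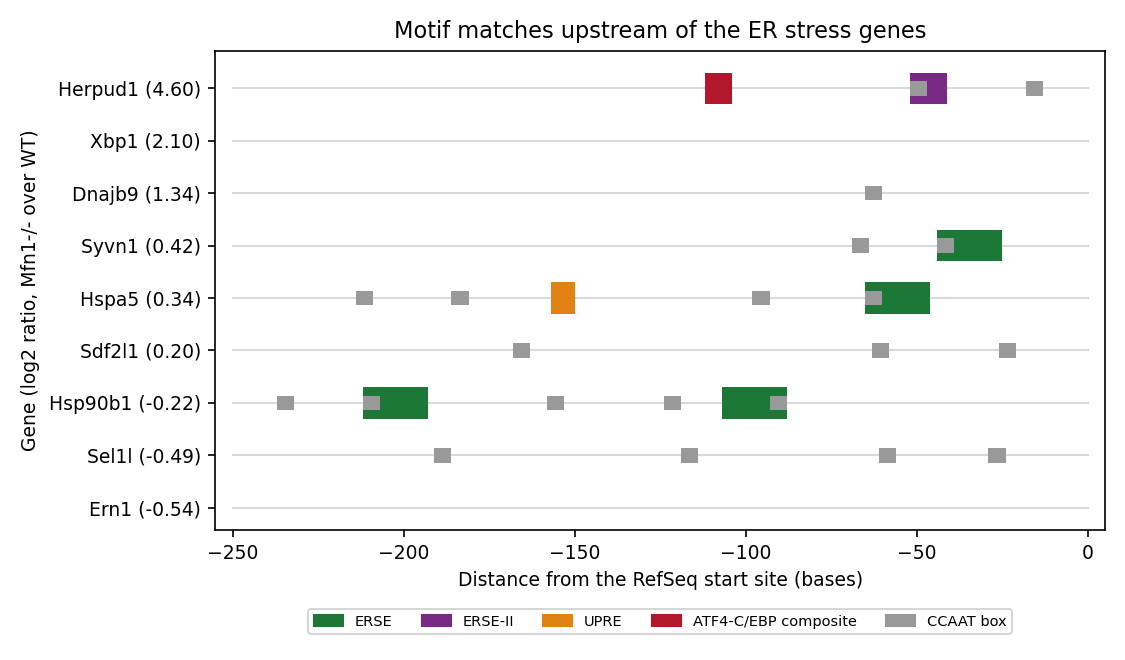
Motif matches in the 250 bases before the RefSeq start site of 9 ER stress genes, ordered by log2 ratio (in brackets, Mfn1-/- over WT, pseudocount 0.1); the horizontal axis is the distance from the start site in bases, and grey CCAAT boxes are drawn narrower over the other elements. Herpud1 carries an ERSE-II and an ATF4-C/EBP composite element, and its window ends before the last letter of a possible ERSE. Whole ERSE matches lie upstream of Syvn1, Hspa5 and Hsp90b1, whose log2 ratios run from -0.22 to 0.42.

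Across the table, 16 expressed genes had a whole ERSE in this window, and 0 of them were past 2-fold in either direction. Of all expressed genes with a window, 4.49% were past 2-fold higher, so 0 of 16 does not set the ERSE genes apart. The median log2 ratio of the 16 was -0.09, and that of all expressed genes with a window 0.15. An ERSE that runs past the start site was not counted, and the Herpud1 window ends before the last letter of a possible one. Beside Syvn1, Hspa5 and Hsp90b1 the 16 include other ER genes: calreticulin (Calr, 0.17), calnexin (Canx, -0.07), the disulfide isomerase Pdia6 (0.14), Creld2 (0.10), Derl3 (-0.04) and the co-chaperone Dnajc3 (-0.15). The lowest of the 16 was Hnrnpa3, an RNA-binding protein gene (-0.64). An ERSE-II was found for 5 expressed genes. After Herpud1 (4.60) came Nucb1 (0.27), Rbm39 (-0.13), Lgalsl (-0.86) and Rcl1 (-1.07), so 1 was past 2-fold higher and 1 past 2-fold lower. The 1 higher is Herpud1 itself, which was chosen by its ratio and is expressed only through its Mfn1-/- mean. Nothing is therefore read from this ERSE-II count. Of the 101 expressed genes with a composite element 10 were past 2-fold higher and 4 past 2-fold lower. Of the 3850 expressed genes with a window, 173 were past 2-fold higher and 75 past 2-fold lower. The 10 hold Herpud1, which was chosen by its ratio, and genes such as Fgf21 and Arl2bp that count as expressed only through their Mfn1-/- mean, so nothing is read from their share. They include Fgf21, an endocrine growth factor gene with a log2 ratio of 6.46, Herpud1, and Chac1, which encodes a glutathione-degrading enzyme (1.92). The 4 past 2-fold lower were Got1 (-2.12), Gm15446 (-1.24), Srgn (-1.06) and Prss37 (-1.01). The median of the 101 genes was 0.12. The UPRE core was found for 97 expressed genes, of which 5 were past 2-fold higher and 1 past 2-fold lower, with a median of 0.28. The genes of these motif sets were named after their values were seen.

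Herpud1 encodes an ER membrane protein with a ubiquitin-like domain that faces the cytosol and takes part in the degradation complex around the ubiquitin ligase HRD1. The gene (ENSMUSG00000031770.16) lies on the plus strand of chromosome 8 of GRCm38 from 94386438 to 94395377 (GENCODE M21), with 2333 exonic bases in all. Its log2 ratio of 4.60 was the 4th highest of the 22877 genes and also the 4th highest of the 6226 expressed genes. Just above it among these stood Usp17lb, a deubiquitinase gene (5.24 and 0.098, log2 ratio 4.75), and Ptgds, a prostaglandin D synthase gene (22.7 and 0.233, 6.10). Just below it stood the metallothionein gene Mt1 (277 and 14.2, 4.28) and Hes5, a target gene of Notch signaling (3.02 and 0.0658, 4.23). Likeness here means only a similar ratio of 2 means.

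The 3 Mfn1-/- libraries together held 11.9 normalized counts of Herpud1, and the 4 WT libraries 0.273. The means do not show how the 11.9 are divided among the 3 libraries. The size of the log2 ratio depends on the pseudocount because the WT mean is low: it was 5.86 with none, 5.67 with 0.01 and 2.22 with 1, and it was past 2-fold in each case. No transcript of another gene shares 75 bases or more with Herpud1 at 95% identity or above. An antisense gene, Gm15890, overlaps it on the opposite strand, has no row, and the strand setting of the counting is not given in the sources used here.

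Of the nearest protein-coding genes on either side of Herpud1, 3 had a row, and none of these was past 2-fold. Genes farther away were not looked at. Nlrc5, an NLR family gene that begins 38979 bases downstream, averaged 0.0119 and 0.0103 (0.02). Nup93, a nucleoporin gene that ends 69211 bases upstream, had 1.12 and 0.818 (log2 ratio 0.41). Cpne2, the next gene downstream, had 0.024 and 0.0122 (0.14).

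Its paralog Herpud2, with the same type of ubiquitin-like domain, averaged 1.15 and 1.46 (log2 ratio -0.32). The 2 paralogs thus had ratios on opposite sides of 1.

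Xbp1 averaged 4.60 in Mfn1-/- oocytes and 0.998 in WT, and its log2 ratio of 2.10 was the 42nd highest among expressed genes. The table counts reads per gene, so the spliced and unspliced forms of Xbp1 mRNA were not told apart. The gene lies on chromosome 11 from 5520659 to 5525893, and its nearest protein-coding neighbour Ccdc117, 2994 bases away, had 7.83 and 7.92.

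Ern1, which encodes the kinase and endoribonuclease IRE1, had means of 0.501 and 0.774 (log2 ratio -0.54). It had the lowest log2 ratio of the 10 genes. Atf6 had the lowest mean of the 10 over the libraries, 0.129, with 0.111 and 0.143 (log2 ratio -0.20). Ern1 and Atf6 were therefore lower in Mfn1-/- oocytes, by less than 2-fold, while Xbp1 was higher.

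Among the chaperones, Dnajb9 was the one past 2-fold. It encodes ERdj4, a J-domain co-chaperone of the HSP70 protein BiP, and had means of 1.81 and 0.653 (log2 ratio 1.34). With a pseudocount of 1 its log2 ratio was 0.77, under 2-fold. Dnajb9 shares 156 bases at 95% identity or above with 1 other gene, Gm6568, so reads could have been divided between them.

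Hspa5, which encodes BiP itself, had means of 47.6 and 37.7 (log2 ratio 0.34). Relative to the centre of the expressed genes the value was 0.18. Hsp90b1, the gene of the ER HSP90 protein GRP94, had 9.53 and 11.1 (log2 ratio -0.22), or -0.38 relative to that centre. It shares 273 bases or fewer with 3 other annotated genes that overlap it, among them the pseudogene 1810014B01Rik on the opposite strand (0.277 and 0.156). Sdf2l1, whose product works with the J-domain protein ERdj3, had 11.3 and 9.82 (log2 ratio 0.20), which is 0.04 above the centre. All 3 thus lay within 2-fold on either scale.

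Sel1l and Syvn1 encode the core of the degradation complex, the adaptor SEL1L and the ubiquitin ligase HRD1. Syvn1 had means of 2.57 and 1.90 (log2 ratio 0.42), and Sel1l had 0.444 and 0.664 (-0.49). The 2 partners differed in direction, and neither was past 2-fold. Syvn1 overlaps the mitochondrial ribosomal protein gene Mrpl49 on the opposite strand over up to 91 transcribed bases, and Mrpl49 had 8.64 and 6.24 (log2 ratio 0.46), so reads of the overlap could be counted to either without strand information.

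**Figure D3:**
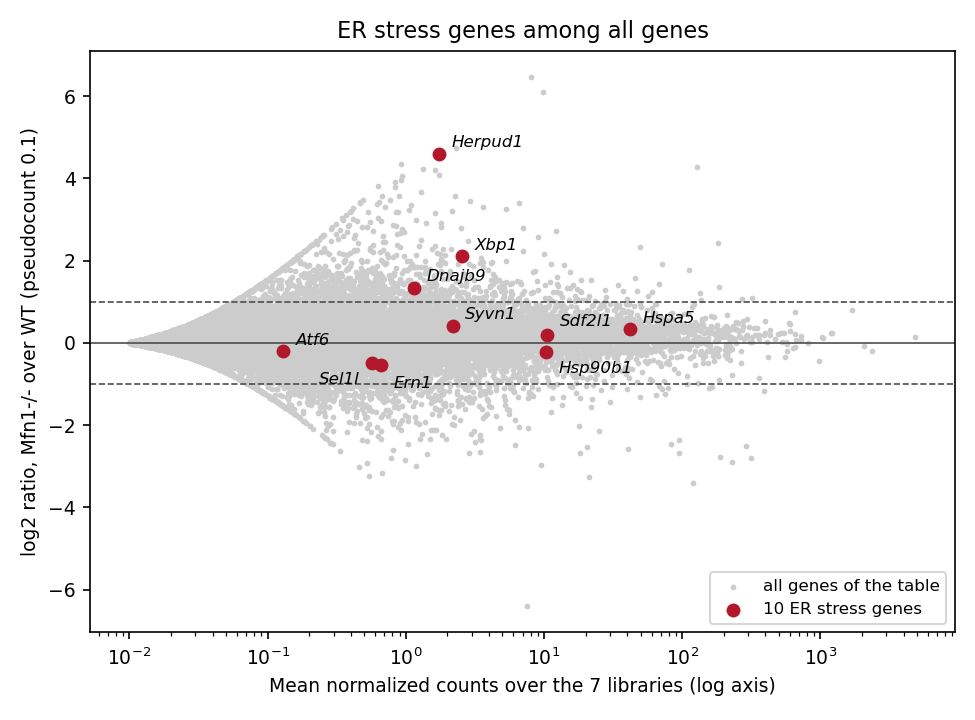
Log2 ratio of the genotype means (Mfn1-/- over WT, pseudocount 0.1) against the mean over the 7 libraries on a log axis, with all genes in grey and the 10 ER stress genes in red; dashed lines mark 2-fold. Herpud1 lies at 4.60, near the upper edge of all genes, Xbp1 and Dnajb9 lie above the upper dashed line, and the other 7 lie between the dashed lines.

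Around these 10 genes, 7 lists of genes with related roles hold 105 further genes, of which 103 have a row. Of the 103, 66 were higher and 37 lower in Mfn1-/- oocytes, with a median log2 ratio of 0.11. Past 2-fold higher were 6, Selenos, Chac1, Asns, Sec61a2, Tmx1 and Sesn2, and past 2-fold lower was 1, Calr3. Of all genes, 4.87% were past 2-fold higher and 2.75% past 2-fold lower. The lists were chosen with earlier results of these data known, so their counts are not read against these shares. Of the 57 that are expressed, 2 were past 2-fold higher and 1 lower. Relative to the centre of the expressed genes, 44 of the 103 lay above and 59 below.

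Of the 28 other genes of ER-associated degradation with a row, 18 were higher and 10 lower, with a median log2 ratio of 0.12, and 1 was past 2-fold. Around the centre of the expressed genes the tally turned, with 12 above and 16 below. The gene past 2-fold was Selenos, which encodes the selenoprotein VIMP that tethers the ATPase VCP to the degradation complex, with means of 6.29 and 1.42 (log2 ratio 2.07). Next came Aup1, a lipid droplet and degradation factor gene, with 3.36 and 2.02 (0.71). The lowest was the ubiquitin ligase gene Rnf185, with 1.76 and 2.62 (-0.55). The channel genes Derl1, Derl2 and Derl3 had log2 ratios of 0.12, 0.50 and -0.04, all within 2-fold.

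The 12 other genes of the HSP70 and HSP90 chaperone system ran from -0.42 to 0.36, with a median of -0.10 and none past 2-fold. Relative to the centre of the expressed genes 11 of the 12 lay below. The highest was Sdf2, the paralog of Sdf2l1 (19.8 and 15.4, log2 ratio 0.36), followed by Dnajb11, which encodes ERdj3 (3.83 and 3.42, 0.16). Among those expressed, Manf, a secreted ER stress factor gene (2.65 and 3.25, -0.28), and Dnajc3, which encodes the inhibitor of PERK p58IPK (3.26 and 3.62, -0.15), were the lowest.

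Of the 9 lectin chaperone and glucosidase genes, 5 were higher and 4 lower, with a median of 0.01, and 4 lay above and 5 below the centre. Calreticulin (Calr) had 33.1 and 29.4 (0.17), and calnexin (Canx) 3.55 and 3.72 (-0.07). Calr3, a calreticulin paralog, had 1.70 and 3.54 (-1.02), the one gene of the 7 lists past 2-fold lower. Of the 15 oxidative folding genes, 10 were higher and 5 lower, with a median of 0.09, but 6 lay above and 9 below the centre. Txndc12 (1.34 and 0.831, 0.63) and Erp29 (3.11 and 2.60, 0.25) were the highest of those expressed, and Erp44 (1.13 and 1.32, -0.21) and Txndc5 (3.09 and 3.42, -0.14) the lowest. Tmx1, a membrane thioredoxin gene with a lower mean, had 0.963 and 0.319 (1.34).

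Of the 16 translocon and signal peptidase genes, 11 were higher and 5 lower, with a median of 0.15, and 8 lay on each side of the centre. Of those expressed the highest were Ssr2 (8.30 and 5.97, 0.47) and Spcs3 (2.39 and 1.72, 0.45) and the lowest Sec61g (5.48 and 5.90, -0.10) and Spcs1 (83.8 and 89.3, -0.09). Sec61a2, one of the 2 paralogs for the channel subunit of the translocon, had a lower mean, with 0.589 and 0.113 (1.69), while Sec61a1 had 1.93 and 1.66 (0.21).

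Of the 9 other genes of UPR sensors and transcription factors, 7 were higher and 2 lower, with a median of 0.09 and none past 2-fold, and 4 lay above and 5 below the centre of the expressed genes. Creb3, which encodes a membrane-bound transcription factor cleaved like ATF6, had 8.73 and 4.47 (0.95), and Atf4 had 55.4 and 45.5 (0.28). Eif2ak3, the PERK gene, had 0.124 and 0.129 (-0.03). Atf6b, the paralog of Atf6, had 0.483 and 0.278 (0.63). Ern2 had 0.0118 and 0.0149 (-0.04). Of the sensor genes, Ern1 (-0.54), Atf6 (-0.20), Eif2ak3 and Ern2 thus lay below 0, and Atf6b lay above it. None of these sensor genes averaged 1 or more, and Ern2 lay near the lowest mean of any gene, 0.01. No shared direction is therefore read from them.

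The 14 genes of the ATF4 and CHOP target list had the highest median of the 7 lists, 0.26, with 11 higher and 3 lower, or 9 above and 5 below the centre. Chac1 had 5.01 and 1.25 (1.92), and Cebpb, a C/EBP transcription factor gene, 67.6 and 37.1 (0.86). Asns, the asparagine synthetase gene, had 0.88 and 0.195 (1.73), and Sesn2, a regulator of mTORC1, 0.268 and 0.0813 (1.02). Of the 14 genes only 5 were expressed, and neither Asns nor Sesn2 was among them. Ddit3, which encodes CHOP, had 18.6 and 18.2 (0.03), and Cebpg, which encodes a partner of ATF4, 5.29 and 4.75 (0.15), so the list held genes past 2-fold beside others close to 0. Tmx1, Sec61a2, Asns and Sesn2 were named after their values were seen, as were the Derlin genes, Eif2ak3, Ern2, Atf6b and Sec61a1.

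**Figure D4:**
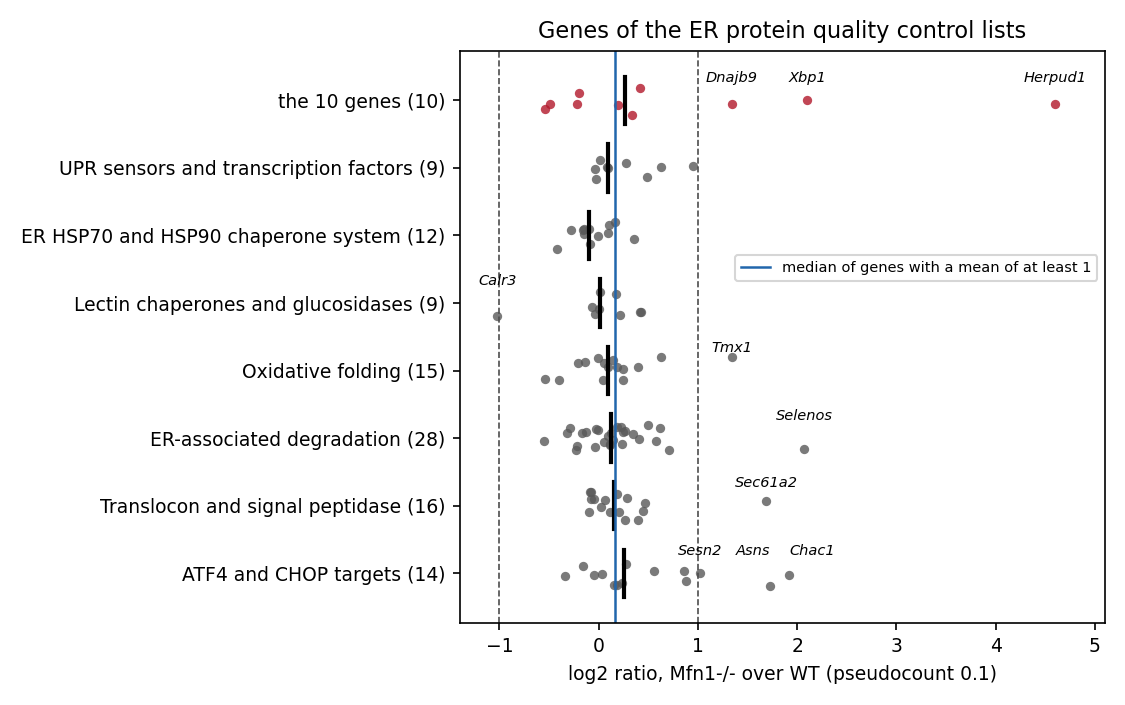
Log2 ratio (Mfn1-/- over WT, pseudocount 0.1) of the 10 ER stress genes in red and of the other genes of 7 lists in grey, with the number of genes with a row in brackets; points are spread vertically for legibility, black bars are medians, the blue line is the median of the expressed genes (0.16), and dashed lines mark 2-fold. Most points of each list lie between the dashed lines, and the names mark the genes beyond them.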

How the data were processed

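Reads of 75 bp in pairs had adapters trimmed with Cutadapt, were quality filtered with the FASTX-Toolkit, aligned with STAR to GRCm38/mm10 and counted on genes, per the labels and the methods. The deposited signal, made by the authors, is the average normalized count of each genotype beside a total, and the normalization and the annotation version are not given in the sources used here. The total matches 3 Mfn1-/- and 4 WT libraries at their averages, within 0.8% for all genes. Columns with the authors' own p-values, adjusted p-values, ratios and fold changes were not used. There were 0 unused columns of single libraries.

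Log2 ratios of the 2 means were computed with a pseudocount of 0.1, and 2-fold was the threshold. The planned leave-one-out and replicate block fits need values of single libraries and were not run. The ratio code was tested on simulated data. Members and lists were chosen with earlier results of these data known. Named genes were the 10 members, Mfn1, the 2 highest and 2 lowest other genes of each list that averaged 1 or more, and the 2 neighbours of Herpud1 on each side in log2 ratio. Positions came from GENCODE M21 (GRCm38), upstream sequences from RefSeq (GRCm38.p6), and shared stretches of at least 75 bases at 95% identity from blastn 2.17.0. Of the gene names 24 are calendar dates and were not assigned. Python 3.11.15, numpy 2.4.6, pandas 2.3.3 and matplotlib 3.10.9 were used.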

Additional observations from a re-analysis of the deposited data

How the results depend on the processing

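The count of 3 of the 10 ER stress genes past 2-fold higher was also 3 with a pseudocount of 0.01 or none, after subtraction of the median of expressed genes, with equal sums of the means of both genotypes, and with a fold of 1.5. It was 3 among the 7 that averaged 1 or more as well, but all 3 passed that minimum only through their Mfn1-/- mean, so this adds no support. A pseudocount of 1 or a fold of 3 left 2, where Dnajb9 was no longer past the threshold. The count past the lower threshold was 0 in each of these settings. The median log2 ratio of the 10 genes, 0.27, was 0.11 after subtraction of the median of expressed genes, 0.14 with equal sums and 0.24 with a pseudocount of 1. It was 0.42 among those that averaged 1 or more, a value set by the minimum itself, which drops Ern1, Atf6 and Sel1l, all lower in Mfn1-/- oocytes. No gene of the 10 turned direction with another pseudocount, scaling or centring. The count of other listed genes past 2-fold in either direction, 7, was 14 with a fold of 1.5, 4 with a fold of 3, 3 with a minimum mean of 1, 12 with no pseudocount and 2 with a pseudocount of 1. Fewer listed genes are counted, 57 of 103, where a mean of at least 1 is asked, and the pseudocount lowers the ratios of genes with low means by its construction. Of all 22877 genes, 1114 were past 2-fold higher and 628 lower. These counts were 2904 and 1901 with no pseudocount, 2395 and 1516 where it was 0.01, 209 and 110 where it was 1, and 818 and 916 after subtraction of the median of expressed genes.

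No paired analysis was possible because the table gives 1 mean per genotype, and leaving out single libraries could not be fitted for the same reason. Depth per library is unknown, so no interval or floor can be given, and the smallest differences above are values without an error.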
